A study of Mus musculus with 17 samples.

Results

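The complement and coagulation genes described here are the secreted liver proteins of the blood's 2 protease cascades, together with their inhibitors. They were taken from a list of 39 gene symbols, and every probe set that the array annotation gives to a listed symbol or its synonym was used. In all, 37 of the 39 genes were measured, by 51 of the 45037 gene probe sets on the array, among 18193 genes in total. C3 and Cpb2 had no probe set under this rule and are not analysed here. A gene with several probe sets is represented by the one with the highest mean over all arrays. By role, 18 of the measured genes belong to complement and 19 to coagulation and fibrinolysis.

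Complement is a chain of plasma proteases that is started by antibody or microbial sugar, passes through the C3 and C5 convertases and ends in a pore, the membrane attack complex. Coagulation is a parallel chain in which clotting factors activate one another until thrombin turns soluble fibrinogen into fibrin. Protein inhibitors hold both chains in check, and plasmin dissolves the clot. Hepatocytes make most of these proteins, and several of them are acute phase proteins whose genes respond to interleukin 6. TCDD (2,3,7,8-tetrachlorodibenzo-p-dioxin) binds and activates the aryl hydrocarbon receptor (AHR), which then enters the nucleus and turns on genes of foreign compound metabolism.

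Messenger RNA of male mouse liver was measured on 17 Affymetrix arrays, 1 per sample, as log2 expression values on a C57BL/6J background. The groups were wild type with TCDD (WT TCDD, n = 6), wild type with corn oil (WT corn oil, n = 5), AHR knockout with TCDD (KO TCDD, n = 3) and AHR knockout with corn oil (KO corn oil, n = 3). A single gavage of 1000 µg/kg TCDD, or of the corn oil vehicle alone, was given 19 h before the liver was taken. Ether had been used to dissolve the TCDD and was evaporated from the oil. Wild-type animals, aged 15 weeks, had been bred in Kuopio from Jackson Laboratory stock, whereas knockouts, aged 10 weeks, were supplied by The Jackson Laboratory. Age and source therefore cannot be told apart from genotype. The labels do not state that each array came from a separate mouse, so the p-values measure the spread between these arrays, which may in part be technical.

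A few features of the arrays bear on what follows. Cyp1a1, a target gene of the AHR, had log2 values of 15.08 to 15.25 in WT TCDD livers, against 4.98 to 6.95 in WT corn oil livers. Among KO TCDD livers it was 5.32 and 5.34 in replicates 2 and 3 but 12.64 in replicate 1, which goes against the pattern of its genotype label. KO corn oil livers lay between 5.81 and 7.18. Of 2 Ahr probe sets, the one with the highest mean gave overlapping values between genotypes and does not check the genotype. Cyp1a2 was 11.28 to 11.45 in KO corn oil livers, against 13.22 to 13.37 in WT corn oil livers. In KO TCDD livers Cyp1a2 was 13.27 in replicate 1 and 11.685 and 11.20 in replicates 2 and 3. WT TCDD replicate 6 stood apart: the SD of its deviations from the group means was 0.319, whereas the other 16 arrays had 0.124 to 0.173, and its Gapdh signal differed by 1.98 between the 3′ and 5′ probe sets, against −0.165 to −0.011 elsewhere. WT corn oil replicate 1 stood apart in acute phase genes: its Saa1 was 15.45 and its Lcn2 12.17, where the other WT corn oil livers had 9.82 to 12.02 and 3.31 to 4.65. KO corn oil livers were also high, at 13.54 to 15.10 for Saa1 and 7.09 to 11.25 for Lcn2. Calls among the 37 genes that change without KO TCDD replicate 1, WT TCDD replicate 6 or WT corn oil replicate 1 are given both ways. The summed signal of 9 hepatocyte markers was 288285 to 309084 in WT TCDD livers, against 308246 to 322275 in WT corn oil livers. It was 298825 to 339448 in KO TCDD livers and 322839 to 343510 in KO corn oil livers.

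TCDD in wild-type livers was followed by lower transcripts of many of these genes and a higher transcript of 1. Of the 37 genes, 12 fell and 1 rose at a Benjamini-Hochberg adjusted p under 0.05 in limma's moderated test over all probe sets. Over all 18193 genes, 2.56% fell and 3.75% rose. The falls were small, 1.13-fold to 1.35-fold, and spanned both cascades: 7 of 19 coagulation genes and 5 of 18 complement genes. Differences lay below 0 for 28 of the 37 genes, against 33.1% of all genes, and their median was −0.09 on the log2 scale, against 0.01 over all genes. The 37 genes had mean log2 values of 7.77 to 15.36, above the array medians of 3.08 to 3.19. All genes are therefore no background of like level, here and in the other comparisons. Of 9 hepatocyte markers, 9 lay below 0 with TCDD in wild type and 3 fell. Values of WT TCDD and WT corn oil arrays did not overlap for 11 of the 37 genes on the lower side and 1 on the higher side, where 2.40% and 3.46% of all genes did the same. Without WT corn oil replicate 1, 1 rose and 9 fell, as Klkb1, Mbl2 and C8a were lost (adjusted p = 0.0503, 0.0529 and 0.0628 in limma), and the median was −0.10. In whole liver, fewer cells of a type and less RNA per cell cannot be told apart.

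**Figure D1:**
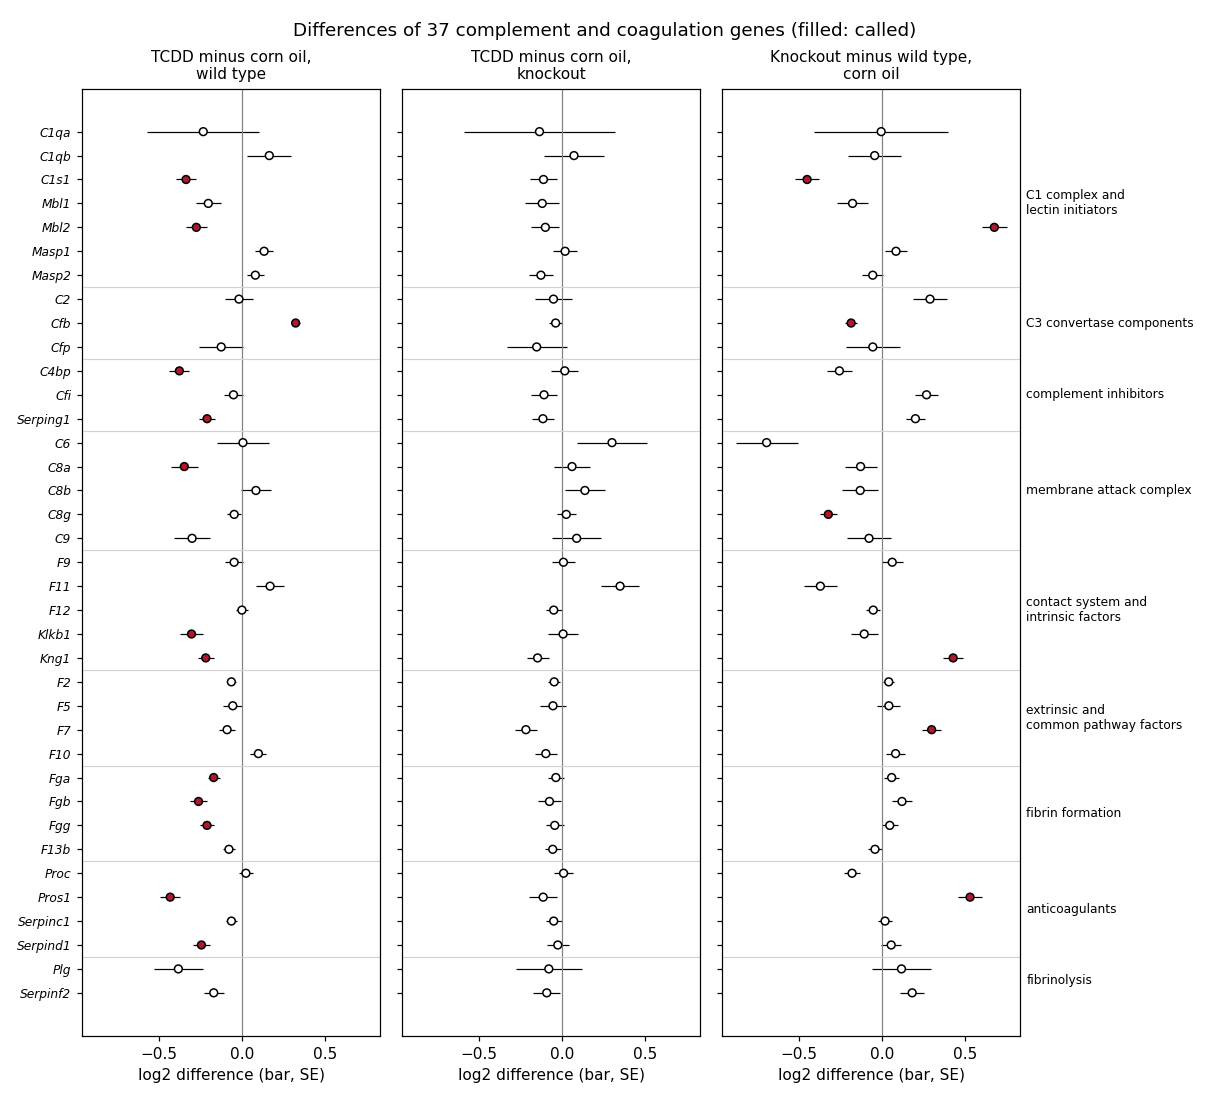
Log2 difference, TCDD minus corn oil, for each of the 37 genes in wild-type and in knockout livers, and knockout minus wild type with corn oil, in 3 panels ordered by role; bars are standard errors and filled points passed the adjusted p. In wild-type livers Cfb stands alone to the right at 0.32 and 12 genes are filled to the left, down to Pros1 at −0.43, while no point of TCDD in knockout is filled.

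The fibrinogen genes fell together. Fga, Fgb and Fgg encode the Aα, Bβ and γ chains, and they lie next to each other on chromosome 3. Fgb had log2 values of 15.05 to 15.22 in WT TCDD livers (median 15.18), against 15.40, 15.53, 15.42, 15.45 and 15.34 in WT corn oil livers. Every WT TCDD array was below every WT corn oil array. The log2 difference was −0.26 ± 0.05 (SE), a 1.20-fold fall (limma adjusted p = 0.00781). Fgg had log2 values of 14.95 to 15.07 in WT TCDD livers (median 14.97), against 15.20, 15.25, 15.23, 15.20 and 15.09 in WT corn oil livers. The groups again lay apart, by −0.21 ± 0.04 (SE; limma adjusted p = 0.00563). Fga had log2 values of 14.92 to 15.10 in WT TCDD livers (median 15.00), against 15.19, 15.22, 15.20, 15.19 and 15.11 in WT corn oil livers. Its difference was −0.17 ± 0.04 (SE; limma adjusted p = 0.0124), with 1 WT corn oil array close to the highest WT TCDD array. These values lie near the top of the table, which ends at 15.9. F13b, the carrier subunit of the factor that cross-links fibrin, differed by −0.08 ± 0.04 (SE) and did not pass the test.

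The promoters of the 3 fibrinogen genes are shown because the genes fell together, and those of Pros1 and C4bp because these had the largest called falls of the 2 cascades. The windows run from 250 bases before to 50 bases after the start of the gene, from RefSeq on GRCm38.p6, and 28 of the 37 genes had such an entry. Capitals mark matches, on either strand, to 5 short motifs: the AHR response element core GCGTG, the STAT3 element TTCNNNGAA, the C/EBP element TTGCNNAA, the HNF1 motif GTTAAT and the HNF4 motif CAAAG. The coordinates are chr3:83025903-83026202 (plus strand) for Fga, chr3:83049814-83050113 (minus strand) for Fgb, chr3:83007474-83007773 (plus strand) for Fgg, chr16:62854057-62854356 (plus strand) for Pros1 and chr1:130661569-130661868 (minus strand) for C4bp.
Fga: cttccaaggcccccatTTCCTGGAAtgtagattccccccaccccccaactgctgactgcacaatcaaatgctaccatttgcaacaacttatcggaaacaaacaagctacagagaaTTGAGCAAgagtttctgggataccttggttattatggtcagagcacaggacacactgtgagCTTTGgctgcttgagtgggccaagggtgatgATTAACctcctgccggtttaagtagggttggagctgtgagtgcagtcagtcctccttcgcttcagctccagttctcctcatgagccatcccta
Fgb: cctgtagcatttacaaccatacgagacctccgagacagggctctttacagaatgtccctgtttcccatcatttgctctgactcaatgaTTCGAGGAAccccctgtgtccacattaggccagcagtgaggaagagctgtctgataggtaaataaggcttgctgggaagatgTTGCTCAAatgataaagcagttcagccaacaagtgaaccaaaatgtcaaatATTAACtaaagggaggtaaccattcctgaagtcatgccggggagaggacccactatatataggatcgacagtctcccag
Fgg: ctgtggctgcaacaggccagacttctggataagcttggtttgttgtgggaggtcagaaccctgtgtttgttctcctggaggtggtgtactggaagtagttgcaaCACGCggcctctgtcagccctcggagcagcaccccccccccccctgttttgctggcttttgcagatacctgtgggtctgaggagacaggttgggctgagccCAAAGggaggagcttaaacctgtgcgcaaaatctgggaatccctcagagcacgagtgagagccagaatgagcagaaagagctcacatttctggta
Pros1: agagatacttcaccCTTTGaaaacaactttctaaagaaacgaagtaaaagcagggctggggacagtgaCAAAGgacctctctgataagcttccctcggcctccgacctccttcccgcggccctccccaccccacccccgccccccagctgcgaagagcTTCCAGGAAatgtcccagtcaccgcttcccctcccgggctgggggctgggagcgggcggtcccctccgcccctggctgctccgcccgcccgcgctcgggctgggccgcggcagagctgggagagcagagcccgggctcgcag
C4bp: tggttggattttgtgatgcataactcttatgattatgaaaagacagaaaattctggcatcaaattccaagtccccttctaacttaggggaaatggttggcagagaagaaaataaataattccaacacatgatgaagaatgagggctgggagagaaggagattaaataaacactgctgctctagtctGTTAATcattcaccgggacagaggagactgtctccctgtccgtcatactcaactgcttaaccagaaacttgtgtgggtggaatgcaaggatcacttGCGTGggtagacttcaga

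Fga and Fgb each held a STAT3 element, a C/EBP element and an HNF1 motif, at −234, −135 and −43 from the start in Fga and at −162, −80 and −29 in Fgb. Fgg held none of those 3 motifs, but had an AHR core at −146 and an HNF4 motif at −45. Pros1 had HNF4 motifs at −236 and −182 and a STAT3 element at −92, and C4bp an HNF1 motif at −64 and an AHR core at 33. STAT3 carries the interleukin 6 signal, and C/EBP, HNF1 and HNF4 are transcription factors of the hepatocyte. Over the 28 genes, 6 (21.4%) had an AHR core, against 35.2% of the 27025 genes with a promoter in the same table. The STAT3 element was in 6 of 28 (21.4%), against 9.55% of all genes. The C/EBP element was in 8 of 28 (28.6%), against 12.2%, and the HNF1 motif in 8 of 28 (28.6%), against 8.24%. The HNF4 motif was in 21 of 28, against 57.4%. By promoter rather than by gene, the shares among all 32851 windows were 32.4% for the AHR core, 8.3% for STAT3, 10.8% for C/EBP, 7.1% for HNF1 and 53.9% for HNF4. A match describes these letters and is not a binding site.

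Among the contact system and intrinsic factors, Klkb1 and Kng1 fell. Klkb1 encodes plasma prekallikrein, the protease that cleaves kininogen. Its log2 values were 12.15 to 12.31 in WT TCDD livers (median 12.22), against 12.62, 12.48, 12.48, 12.67 and 12.39 in WT corn oil livers, with no overlap. The difference was −0.30 ± 0.07 (SE; limma adjusted p = 0.0165), and the call was lost without WT corn oil replicate 1 or 4, at −0.27 at the smallest. Kng1, the kininogen that releases bradykinin, had log2 values of 13.94 to 14.30 in WT TCDD livers (median 14.07), against 14.32, 14.29, 14.29, 14.30 and 14.38 in WT corn oil livers. The highest WT TCDD array, replicate 6, overlapped the WT corn oil range. The difference was −0.22 ± 0.05 (SE; limma adjusted p = 0.0187), −0.26 without that array and −0.19, no longer past the test, without WT corn oil replicate 5. A second Kng1 probe set gave −0.17 ± 0.05 (SE) and did not pass (limma adjusted p = 0.0830). F9, F11 and F12, the proteases that lead from contact activation to factor X, differed by −0.05, 0.17 and −0.00, and none passed.

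The extrinsic and common pathway moved little. F7, which starts clotting with tissue factor, differed by −0.09 ± 0.05 (SE), F10 by 0.10 ± 0.05, F5, the cofactor of factor X, by −0.06 ± 0.06, and F2, prothrombin, by −0.06 ± 0.03 on the log2 scale. None of these 4 passed the test, with adjusted p between 0.372 and 0.890 in limma. The other 2 F10 probe sets gave −0.07 and 0.18 and the other F5 probe set −0.00, also without passing.

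Of the 4 anticoagulant genes, Pros1 and Serpind1 fell. Pros1 encodes protein S, the vitamin K-dependent cofactor of activated protein C, and protein S circulates partly bound to the C4b-binding protein. In WT TCDD livers Pros1 had log2 values of 9.47 to 9.56 (median 9.48), against 10.11, 10.00, 9.94, 9.89 and 9.70 in WT corn oil livers. The WT TCDD arrays lay close together and below all WT corn oil arrays. The difference of −0.43 ± 0.06 (SE), a 1.35-fold fall (limma adjusted p = 0.000632), was the largest called among the 37 genes. Serpind1, heparin cofactor II and an inhibitor of thrombin, had log2 values of 12.77 to 12.998 in WT TCDD livers (median 12.85), against 13.12, 13.15, 13.17, 12.97 and 13.21 in WT corn oil livers. One WT corn oil array lay within the WT TCDD range, and the difference was −0.24 ± 0.05 (SE; limma adjusted p = 0.00899). Proc, protein C, differed by 0.02 ± 0.04 (SE) and Serpinc1, antithrombin, by −0.06 ± 0.04, and neither passed.

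In fibrinolysis, Plg depended on a single array. Plg encodes plasminogen, the precursor of plasmin. Its log2 values were 13.79 to 13.90 on 5 WT TCDD arrays and 12.88 on WT TCDD replicate 6, against 14.12, 14.06, 14.12, 14.04 and 14.02 in WT corn oil livers. All WT TCDD arrays were below all WT corn oil arrays, yet with the 6 arrays the difference of −0.38 ± 0.15 (SE) did not pass (limma adjusted p = 0.247). Without WT TCDD replicate 6 it was −0.22 ± 0.03 (SE) and passed (limma adjusted p = 0.000829). Serpinf2, the α2-antiplasmin that inhibits plasmin, differed by −0.17 ± 0.06 (SE; limma adjusted p = 0.172).

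**Figure D2:**
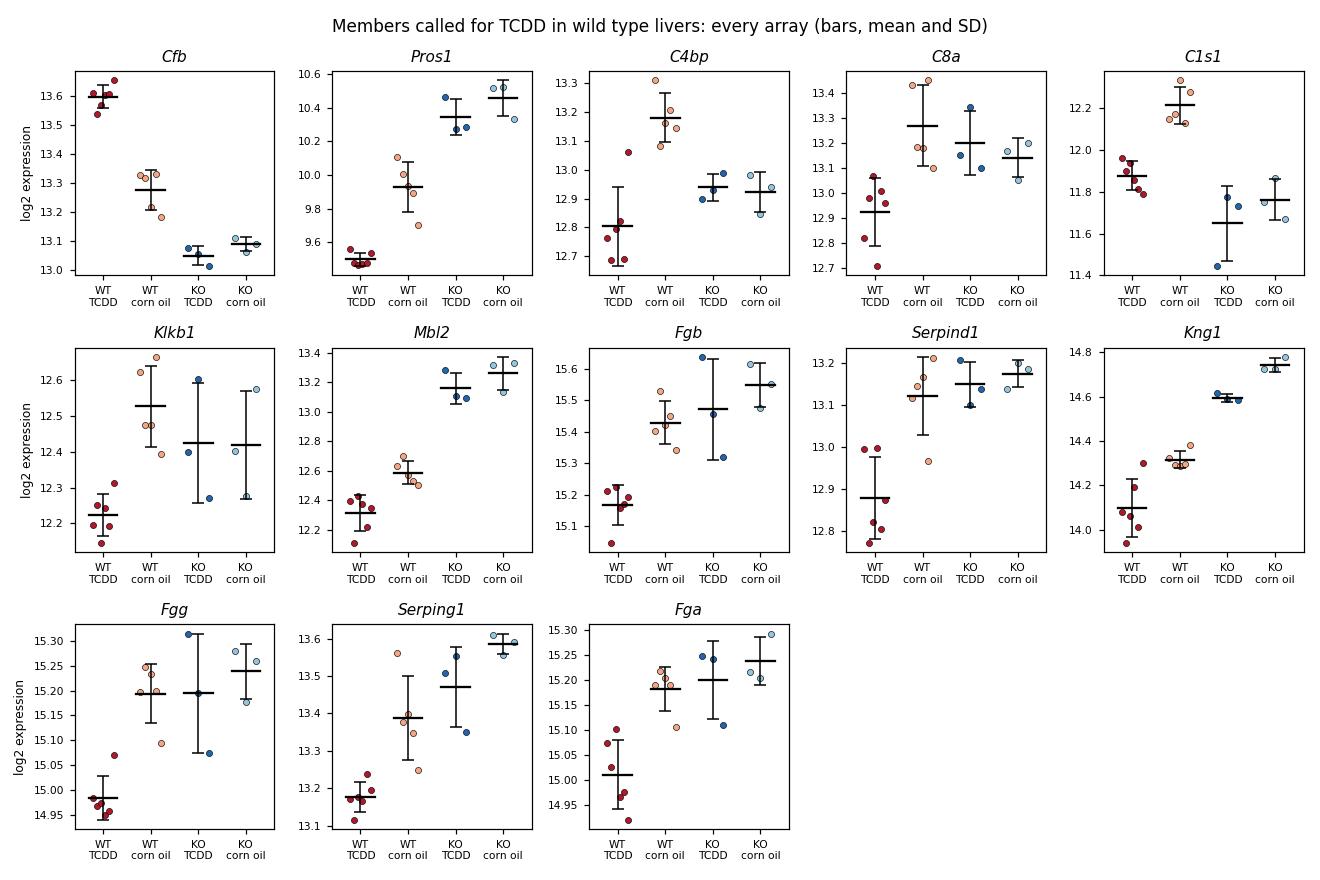
Log2 expression of the 13 genes called for TCDD in wild type, on every array of the 4 groups, with the group mean and SD as bars. Cfb is the gene whose WT TCDD arrays lie above all WT corn oil arrays; Serpind1 and Kng1 are the 2 whose WT TCDD and WT corn oil arrays overlap.

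In complement, the gene that rose was Cfb. Cfb encodes factor B, which supplies the protease of the alternative pathway C3 convertase. It had log2 values of 13.54 to 13.65 in WT TCDD livers (median 13.60), against 13.33, 13.32, 13.22, 13.33 and 13.18 in WT corn oil livers. The groups lay apart, with a difference of 0.32 ± 0.03 (SE), a 1.25-fold rise (limma adjusted p = 9.29e-06). C2, its neighbour on chromosome 17 and its counterpart in the classical pathway, differed by −0.02 ± 0.08 (SE), and its other 2 probe sets by −0.02 and 0.04. Cfp, properdin, which stabilises the alternative convertase, differed by −0.13 ± 0.13 (SE), and neither C2 nor Cfp passed.

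Among the initiators, C1s1 and Mbl2 fell. C1s1 encodes the C1s protease, which cleaves C4 and C2. The log2 values of C1s1 were 11.79 to 11.96 in WT TCDD livers (median 11.88), against 12.15, 12.17, 12.34, 12.13 and 12.28 in WT corn oil livers, with no overlap. The difference was −0.34 ± 0.06 (SE; limma adjusted p = 0.00415). Mbl2, a mannose-binding lectin that starts the lectin pathway, had log2 values of 12.11 to 12.43 in WT TCDD livers (median 12.36), against 12.63, 12.70, 12.58, 12.53 and 12.50 in WT corn oil livers. The groups lay apart by −0.27 ± 0.06 (SE; limma adjusted p = 0.0192), and the call was lost without WT corn oil replicate 1 or 2. Mbl1, the other mannose-binding lectin, differed by −0.20 ± 0.08 (SE), and the lectin proteases Masp1 and Masp2 by 0.13 ± 0.05 and 0.08 ± 0.05, without passing. The 4 other Masp1 probe sets ranged from −0.17 to 0.10. C1qa and C1qb, chains of the C1q recognition protein that macrophages make, differed by −0.23 ± 0.34 (SE) and 0.16 ± 0.13. C1qa was 7.05 on WT TCDD replicate 6 and 8.90 to 9.34 on the other WT TCDD arrays, and without replicate 6 its difference was 0.11 ± 0.15 (SE). Summed over 11 macrophage markers, the signal was 3815 to 6356 in WT TCDD livers, against 4790 to 7179 in WT corn oil livers. WT TCDD replicate 6 was the lowest, with 4825 next, and 0 of the 11 markers passed by limma, with 1 at an unadjusted p under 0.05. Over all genes, 3057 of 18193 were under that unadjusted p for TCDD in wild type.

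Complement inhibitors fell in 2 of 3 cases. C4bp encodes the C4b-binding protein, which takes apart the classical pathway convertase. It had log2 values of 12.69 to 13.06 in WT TCDD livers (median 12.78), against 13.31, 13.08, 13.16, 13.21 and 13.14 in WT corn oil livers. The highest WT TCDD value, 13.06, came from replicate 6 and lay just under the lowest WT corn oil value. The difference was −0.38 ± 0.06 (SE), a 1.30-fold fall (limma adjusted p = 0.00163), and −0.43 ± 0.04 without replicate 6. Serping1, the C1 inhibitor, which also blocks kallikrein, had log2 values of 13.12 to 13.24 in WT TCDD livers (median 13.17), against 13.56, 13.38, 13.40, 13.35 and 13.25 in WT corn oil livers. Its arrays did not overlap, and the difference was −0.21 ± 0.05 (SE; limma adjusted p = 0.0184). Cfi, factor I, which cleaves C3b and C4b, differed by −0.05 ± 0.06 (SE) and did not pass.

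Of the 5 membrane attack complex genes, C8a fell. C8a encodes the α chain of C8. Log2 values of C8a were 12.71 to 13.07 in WT TCDD livers (median 12.97), against 13.43, 13.18, 13.18, 13.45 and 13.10 in WT corn oil livers. The groups lay apart by −0.35 ± 0.08 (SE; limma adjusted p = 0.0210), and the call was lost without WT corn oil replicate 1 or 4. C8b, its neighbour on chromosome 4, differed by 0.08 ± 0.09 (SE) and C8g, the γ chain, by −0.05 ± 0.04. C9, which forms the ring of the pore, differed by −0.30 ± 0.11 (SE; limma adjusted p = 0.213), and C6 by 0.01 ± 0.15.

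Scan day was the technical batch examined from the scan settings, and its 3 days each held arrays of several groups. Knockout arrays were unevenly spread: days 1, 2 and 3 held 2, 1 and 0 KO corn oil arrays and 0, 2 and 1 KO TCDD arrays. Only on day 2 did both knockout groups share a day. TCDD in knockout livers, and with it the difference of effects, can therefore be told apart from scan day only in part. With scan day as a block, all 13 calls for TCDD in wild type remained and Mbl1 was added. Within day 2 (4 WT TCDD and 3 WT corn oil arrays) 5 of the 13 passed, Cfb, Pros1, Fgb, Fgg and Serping1. Day 1 held 2 WT TCDD arrays and 1 WT corn oil array, replicate 1, so its values are given without a test. All 13 differences kept their sign within each of these days. Cfb differed by 0.25 within day 1 and by 0.32 within day 2, and C4bp by −0.58 and −0.31.

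In knockout livers TCDD left no gene of the 37 past the test. By limma, 0 of 37 were called, where 0.0110% of all genes rose and 0% fell. At an unadjusted p under 0.05 there were 3 of 37 genes, F7, F11 and Kng1, against 3.28% of all genes. The median log2 difference was −0.05, against −0.02 over all genes. It ranged from −0.07 to −0.01 when 1 array was left out and was −0.0085 with scan day as a block. In all, 25 of 37 differences lay below 0, against 70.4% of all genes. KO TCDD arrays lay wholly above KO corn oil arrays for 1 of the 37 genes and wholly below for 4. Over all 18193 genes, 295 lay wholly above and 6702 wholly below. F11, factor XI, had log2 values of 10.04, 10.20 and 10.20 in KO TCDD livers, against 9.80, 9.67 and 9.93 in KO corn oil livers. Those groups lay apart, by 0.35 ± 0.11 (SE; limma adjusted p = 0.875). F7 had log2 values of 10.35, 10.42 and 10.39 in KO TCDD livers, against 10.78, 10.52 and 10.51 in KO corn oil livers, a difference of −0.22 ± 0.07 (SE; limma adjusted p = 0.875). Without KO TCDD replicate 1, the array with high Cyp1a1, the F11 and F7 differences were 0.40 ± 0.13 and −0.20 ± 0.08 (SE), and still 0 of the 37 genes passed.

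The 12 genes that fell in wild type were picked for those falls, so their differences in knockout livers are given as values only. Of the 12, 9 lay below 0 in knockout livers, against 70.4% of all genes. C4bp had log2 values of 12.90, 12.93 and 12.99 in KO TCDD livers, against 12.98, 12.85 and 12.94 in KO corn oil livers, a difference of 0.02 ± 0.08 (SE). Pros1 had 10.47, 10.27 and 10.29 in KO TCDD livers, against 10.52, 10.52 and 10.33 in KO corn oil livers, or −0.11 ± 0.08 (SE). Fgb had 15.64, 15.46 and 15.32 in KO TCDD livers, against 15.61, 15.48 and 15.55 in KO corn oil livers, or −0.08 ± 0.07 (SE), and Fga and Fgg each differed by −0.04 ± 0.05. The knockout arrays of C4bp, Pros1 and the fibrinogen genes overlapped between treatments, as did those of C1s1, C8a, Mbl2, Serpind1 and Klkb1. Mean log2 values in KO TCDD and KO corn oil livers were 11.65 and 11.76 for C1s1 and 13.20 and 13.14 for C8a. They were 13.16 and 13.26 for Mbl2, 13.15 and 13.18 for Serpind1, and 12.42 and 12.42 for Klkb1. Serping1 arrays lay narrowly apart, at 13.51, 13.55 and 13.35 for TCDD against 13.61, 13.56 and 13.59 for corn oil. Such a gap was common in knockout livers, where 6702 of 18193 genes lay wholly below with TCDD. Kng1 differed by −0.15 ± 0.07 (SE) in knockout livers, with arrays at 14.61, 14.59 and 14.58 for TCDD against 14.72, 14.72 and 14.78 for corn oil, beside −0.22 in wild-type livers. Over the 37 genes, Pearson's r between the knockout and wild-type TCDD differences was 0.32 and Spearman's rho 0.30, a description over genes that are not independent.

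The TCDD effect differed between genotypes for Cfb. Tested directly as the knockout minus the wild-type difference, 1 of 37 genes passed, on the lower side, against 1.25% of all genes lower and 0.385% higher. Cfb had log2 values of 13.08, 13.06 and 13.01 in KO TCDD livers, against 13.11, 13.06 and 13.09 in KO corn oil livers, so its difference there was −0.04 ± 0.04 (SE). Set against the wild-type rise of 0.32, the interaction was −0.36 ± 0.05 (SE; limma adjusted p = 0.00159), and −0.38 without KO TCDD replicate 1. C4bp came next by adjusted p, with an interaction of 0.39 ± 0.10 (SE; limma adjusted p = 0.102). Without WT TCDD replicate 6 it was 0.44 ± 0.07 and passed (limma adjusted p = 0.00599). C8a had 0.41 ± 0.13 (SE; limma adjusted p = 0.277) and Pros1 0.32 ± 0.10 (SE; limma adjusted p = 0.265). With scan day as a block, Pros1 had 0.50 ± 0.08 and passed (limma adjusted p = 0.0189). C4bp passed under quantile normalization, median centring, array weights and the replicate block. The median interaction of the 37 genes was 0.07, against −0.03 over all genes, with 11 of 37 below 0, against 69.2% of all genes.

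**Figure D3:**
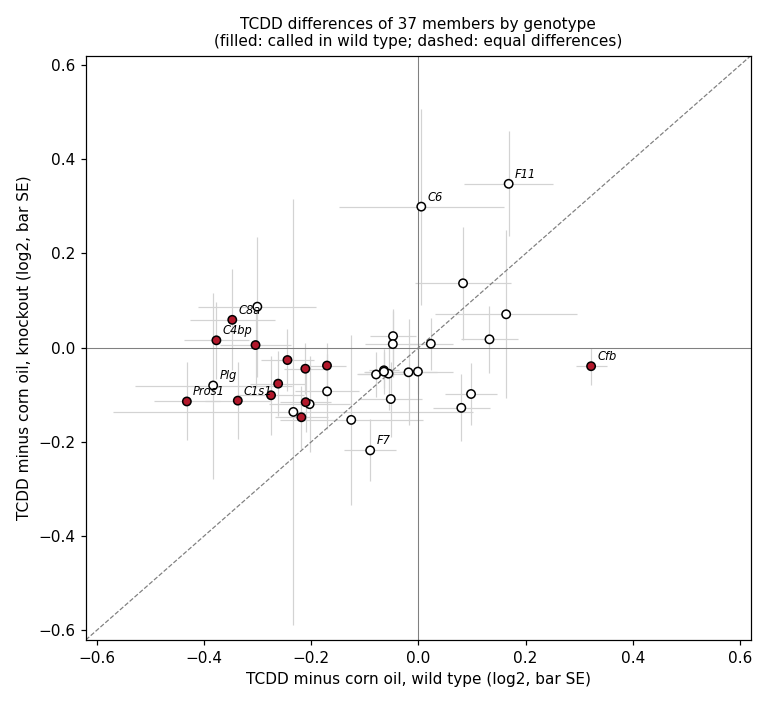
TCDD difference (log2) in knockout livers on the vertical axis against that in wild-type livers on the horizontal axis, 1 point per gene, with the diagonal where both are equal. Cfb lies at −0.04 in knockout and 0.32 in wild type, and Pros1 at −0.11 in knockout and −0.43 in wild type.

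With corn oil alone, knockout livers differed from wild-type livers for 7 of the 37 genes, 4 higher and 3 lower, against 1.40% and 0.934% of all genes. The 4 higher were Mbl2, Pros1, Kng1 and F7, and the 3 lower were C1s1, C8g and Cfb. Of the 7, 3 of the 4 higher genes belong to coagulation and all 3 lower genes to complement. Arrays did not overlap between genotypes for 7 genes above and 6 below, where 5.20% and 3.08% of all genes did the same. The median log2 difference was 0.02, against 0.01 over all genes, and 18 of the 37 differences lay below 0, against 31.4% of all genes. This comparison shares the WT corn oil arrays with the TCDD comparison in wild type, so the values of both are set side by side only. The summed signal of 24 acute phase genes was 184673 to 223672 in KO corn oil livers, against 246524 in WT corn oil replicate 1 and 131185 to 146503 in the other 4. Without that replicate the 7 calls remained and Serping1 was added, at 0.24 ± 0.05 (SE; limma adjusted p = 0.0184). The part of the acute phase genes in these differences was not tested.

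Mbl2 had the largest called rise. It had log2 values of 13.32, 13.13 and 13.33 in KO corn oil livers, against 12.63, 12.70, 12.58, 12.53 and 12.50 in WT corn oil livers. The gap between groups was wide next to their spread, with a difference of 0.67 ± 0.07 (SE), a 1.59-fold rise (limma adjusted p = 0.000208). Mbl1 differed by −0.18 ± 0.09 (SE; limma adjusted p = 0.681). Pros1 had 10.52, 10.52 and 10.33 in KO corn oil livers, against 10.11, 10.00, 9.94, 9.89 and 9.70 in WT corn oil livers. All KO arrays were above all WT arrays, by 0.53 ± 0.07 (SE), a 1.44-fold rise (limma adjusted p = 0.00149). For these 2 genes the genotype difference was above 0 and the TCDD difference in wild type, −0.27 for Mbl2 and −0.43 for Pros1, below 0.

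Kng1 and F7 also rose. Kng1 had log2 values of 14.72, 14.72 and 14.78 in KO corn oil livers, against 14.32, 14.29, 14.29, 14.30 and 14.38 in WT corn oil livers, a difference of 0.43 ± 0.06 (SE; limma adjusted p = 0.00140). The second Kng1 probe set went against it, with −0.03 ± 0.06 (SE), and Kng2, a close paralog that could share signal, is its neighbour on chromosome 16. F7 had 10.78, 10.52 and 10.51 in KO corn oil livers, against 10.23, 10.30, 10.45, 10.30 and 10.26 in WT corn oil livers. The difference was 0.30 ± 0.06 (SE; limma adjusted p = 0.0192). It lost the call without KO corn oil replicate 1, the highest array, at 0.21, and with scan day as a block, at 0.29 (limma adjusted p = 0.0785). F10, its neighbour on chromosome 8, differed by 0.08 in its representative probe set and by 0.10 and 0.28 in the others, without passing.

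C1s1, C8g and Cfb were lower in knockout livers. C1s1 had log2 values of 11.75, 11.86 and 11.67 in KO corn oil livers, against 12.15, 12.17, 12.34, 12.13 and 12.28 in WT corn oil livers, a difference of −0.45 ± 0.07 (SE), a 1.37-fold fall (limma adjusted p = 0.00490). C8g had 13.31, 13.15 and 13.28 in KO corn oil livers, against 13.59, 13.59, 13.55, 13.49 and 13.63 in WT corn oil livers, a difference of −0.32 ± 0.05 (SE; limma adjusted p = 0.00468). C8g encodes a lipocalin chain of C8, and in both genes the groups lay apart. Cfb had 13.11, 13.06 and 13.09 in KO corn oil livers, against 13.33, 13.32, 13.22, 13.33 and 13.18 in WT corn oil livers. Its difference was −0.19 ± 0.03 (SE; limma adjusted p = 0.0135), lost without KO corn oil replicate 2 at −0.17. Day 1 held a single WT corn oil array and day 2 a single KO corn oil array, so the within-day differences are values without a test. All 7 signs were kept within days 1 and 2, with Mbl2 at 0.59 and 0.73 and C1s1 at −0.34 and −0.54.

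**Figure D4:**
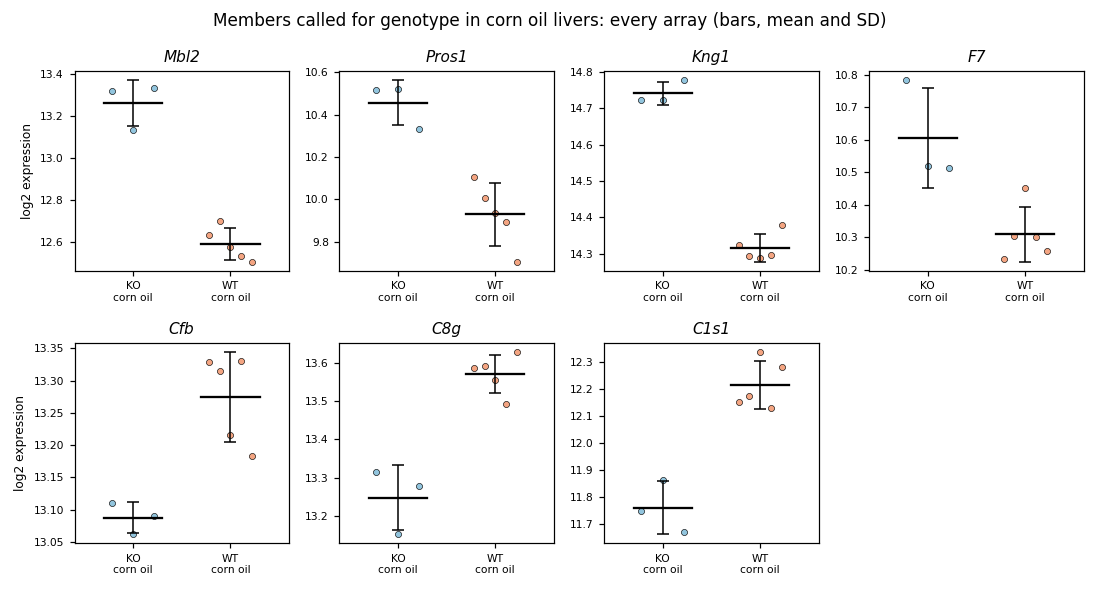
Log2 expression of the 7 genes called for genotype in corn oil livers, on every array, KO corn oil left of WT corn oil, with the mean and SD as bars. No KO array overlaps a WT array in any of the 7 panels; the vertical scale differs between panels.

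The remaining 30 genes did not pass the genotype test. C6 had the largest difference, with log2 values of 10.9999, 10.92 and 11.31 in KO corn oil livers, against 11.97, 11.68, 11.65, 12.18 and 11.40 in WT corn oil livers. The groups lay apart by −0.69 ± 0.19 (SE; limma adjusted p = 0.0987), and C6 passed when probe sets of low mean were left out. F11 differed by −0.37 ± 0.10 (SE; limma adjusted p = 0.101) and Proc by −0.18 ± 0.05 (limma adjusted p = 0.104). Cfi differed by 0.27 ± 0.07 (SE; limma adjusted p = 0.0988) and C4bp by −0.26 ± 0.07 (limma adjusted p = 0.125). Both passed without WT TCDD replicate 6, at 0.27 ± 0.05 and −0.26 ± 0.05. Its 3 probe sets placed C2 at 0.29, 0.41 and 0.39, all above 0 and none past the test. Serping1 differed by 0.20 ± 0.06 (SE) and Serpinf2 by 0.18 ± 0.07, and the fibrinogen genes by 0.05 to 0.12. Beside these and Mbl1, the other 18 lay between −0.13 and 0.12.

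The same cascades hold genes outside the list. Among 22 other measured complement genes, 2 rose and 2 fell with TCDD in wild type, against 3.75% and 2.56% of all genes. Cd59a, which blocks the membrane attack complex, rose by 0.63 ± 0.08 (SE; limma adjusted p = 0.000330) and Cr1l, a regulator of the C3 convertase, by 0.23 ± 0.05, while C1ra fell by 0.18 ± 0.05 and Clu, clusterin, by 0.15 ± 0.04. C1ra, the protease partner of C1s and its neighbour on chromosome 6, lost its call when any 1 of 12 arrays was left out, and Clu when any 1 of 14 was. Among 29 other coagulation genes, Hgfac, the protease that activates hepatocyte growth factor, rose by 0.26 ± 0.05 (SE) and Hrg, histidine-rich glycoprotein, by 0.12 ± 0.03, the second lost when any 1 of 13 arrays was left out. For TCDD in wild type, Cr1l, C1ra, Clu, Hgfac and Hrg did not meet the naming rule and were added after their values were seen. In knockout livers 0 of the 22 and 0 of the 29 genes passed for TCDD by limma. At an unadjusted p under 0.05 there were 0 and 4, against 3.28% of all genes. Several of the 29, among them Plaur, F2rl3, F13a1, Bdkrb1 and Serpinb2, had means of 1.77 to 2.46, below the array medians of 3.08 to 3.19.

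For genotype with corn oil, C1ra was lower in knockout livers by 0.43 ± 0.06 on the log2 scale (SE; limma adjusted p = 0.000722), beside the −0.45 of C1s1. Fcna, ficolin A, a macrophage lectin of the lectin pathway, was lower by 0.94 ± 0.16 (SE; limma adjusted p = 0.00818). In coagulation, Serpina10, the protein Z-dependent inhibitor, rose by 0.45 ± 0.10 (SE), and F2r, the thrombin receptor, and Hgfac were lower by 0.91 ± 0.19 and 0.32 ± 0.07. Serpina10 lost its call when any 1 of 11 arrays was left out, F2r when any 1 of 5 was and Hgfac when any 1 of 3 was. The TCDD effect differed between genotypes for Cd59a, by −0.75 ± 0.14 (SE; limma adjusted p = 0.0158), Hgfac, by −0.44 ± 0.09, and Hrg, by −0.27 ± 0.05. These calls were lost when any 1 of 2 arrays was left out for Cd59a, any 1 of 10 for Hgfac and any 1 of 5 for Hrg.

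Vitamin K is needed to activate 6 of the 37 genes' products, F2, F7, F9, F10, Proc and Pros1. Of the 6, 1 fell with TCDD in wild type, against 2.56% of all genes, and 2 rose with genotype, against 1.40% of all genes. Of 5 genes of the vitamin K cycle, Nqo1 rose with TCDD in wild type (limma adjusted p = 7.30e-08). Nqo1 is also a known AHR target gene, with log2 values of 6.75 to 8.13 in WT TCDD livers, against 3.13 to 3.16 in WT corn oil livers. The WT corn oil values are near the medians of the arrays, 3.08 to 3.19, so no fold is given. Ggcx, the carboxylase itself, differed by 0.20 ± 0.13 (SE), or by 0.32 ± 0.09 without WT TCDD replicate 6 (limma adjusted p = 0.0692), and Vkorc1, the epoxide reductase, by 0.00 ± 0.04, and neither passed.

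Other acute phase genes were lower as well in WT TCDD livers. Of 24 measured, 7 fell and 0 rose, against 2.56% and 3.75% of all genes. The summed signal of the 24 was 114217 to 128923 in WT TCDD livers. It was 246524 in WT corn oil replicate 1 and 131185 to 146503 in the other WT corn oil livers. Steap4, a metalloreductase, fell by 1.10 ± 0.11 (SE; limma adjusted p = 2.64e-05), Lbp, the lipopolysaccharide-binding protein, by 0.94 ± 0.14 and Saa4, a serum amyloid A, by 0.68 ± 0.17. The Saa4 call was lost when any 1 of 7 arrays was left out. With TCDD in knockout livers 0 of the 24 passed by limma, and 19 of 24 differences lay below 0, against 70.4% of all genes. The summed signal was lower there too, at 154859 to 179740 in KO TCDD livers, against 184673 to 223672 in KO corn oil livers, with no overlap. For single genes, 6702 of 18193 also had every KO TCDD array below every KO corn oil array. For genotype with corn oil, Itih3, a heavy chain of the inter-alpha-trypsin inhibitor, was higher in knockout livers by 0.47 ± 0.07 (SE; limma adjusted p = 0.00140) and Cp, ceruloplasmin, lower by 0.36 ± 0.06, the second lost without KO corn oil replicate 1. Without WT corn oil replicate 1, Saa1, Saa2, Lcn2, Hpx and Fgl1 were also higher in knockout livers, by 0.28 for Hpx to 4.87 for Lcn2. Those 5 were named after their values were seen. Of 16 regulators of hepatocyte genes, 1 rose and 2 fell, against 3.75% and 2.56% of all genes. Nr1i3, the receptor CAR, rose by 1.81 ± 0.16 (SE; limma adjusted p = 9.23e-06). Foxa3, a forkhead factor of the liver, fell by 0.90 ± 0.20 and Cebpa, which binds C/EBP elements, by 0.69 ± 0.14. Cebpb, another C/EBP gene, had log2 values of 10.83 to 11.78 in WT TCDD livers, against 10.37 to 10.92 in WT corn oil livers. Cebpd had 3.20 to 4.85, against 3.80 to 4.63. Neither passed, and both were added after their values were seen. Cebpa was 11.08 on WT TCDD replicate 6 and 11.80 to 12.08 on the other WT TCDD arrays, and remained called whichever array was left out. Foxa3 was lost without WT corn oil replicate 5. The part of these regulators in the falls of the 12 genes was not tested.

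Some markers of liver cell types, chiefly endothelial and hepatocyte ones, moved with TCDD in wild type too. Of 8 endothelial markers 3 fell, against 2.56% of all genes. Summed signals of the 8 were 1591 to 1864 in WT TCDD livers, against 2121 to 2370 in WT corn oil livers, and did not overlap. Of the 9 hepatocyte markers 3 fell, and all 9 lay below 0, against 2.56% and 33.1% of all genes. Of 4 platelet markers 1 rose, against 3.75% of all genes, with summed signals of 43.9 to 49.7 in WT TCDD livers, against 35.1 to 42.8 in WT corn oil livers. It was Pf4, with low log2 values of 4.93 to 5.19 in WT TCDD livers, against 4.43 to 4.88 in WT corn oil livers. Ppbp, Itga2b and Gp9 had means of 2.26, 2.29 and 1.87, below the array medians of 3.08 to 3.19. Of 5 stellate cell and 5 leukocyte markers 0 passed by limma, with 2 and 0 at an unadjusted p under 0.05, against 3057 of 18193 genes. The 5 leukocyte markers had means of 2.40 to 3.13, at or below the array medians, so a change in them could go unseen. For genotype, where 1.40% of all genes rose, 1 of 8 endothelial markers, Lyve1, rose by 1.64 ± 0.38 (SE). Its call was lost when any 1 of 14 arrays was left out. Of the 9 hepatocyte markers, 1 rose with genotype. The part of these markers in the results was not tested.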

How the data were processed

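Liver RNA of 17 samples was measured on Affymetrix Mouse Genome 430 2.0 arrays. The deposited values are log2 expression, 1 per probe set and array, background corrected, normalized across arrays and summarised by the authors (per the submitters' processing notes, affy 1.5.8 with RMA or GCRMA; the notes do not say which). Normalization across arrays would hide a change shared by most genes. Arrays have no read depth, and their number limits the precision. Per the file headers, the scan settings gave the scan day. They also gave a module number, from 1 to 4, which was recorded but entered no fit.

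Of 45101 probe sets, 64 controls were left out and 45037 tested with no filter on level; 34945 name 1 gene, 932 several and 9160 none in the annotation, and 34741 matched the gene table by Entrez ID. A model with 4 group means (13 residual degrees of freedom) was fitted over the 17 arrays (limma 3.58.1, lmFit and eBayes; R 4.3.3). A gene rose or fell where its probe set had a two-sided Benjamini-Hochberg adjusted p under 0.05 within the contrast, over all probe sets. Errors of differences are standard errors.

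All 37 measured genes were named; of other lists, the 8 largest called genes per contrast. The members, lists and tests were chosen with earlier results of these data known, so none is independent support. The code was tested on simulated data. Same-numbered arrays did not deviate together (correlations −0.27 to 0.097), so the replicate numbers were not taken as pairs. Alternatives were quantile normalization, median centring, array weights, scan day as a block and within day, a replicate block, a filter on low values, other probe set choices and leaving out each array.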

Additional observations from a re-analysis of the deposited data

Results flagged for a closer look

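In groups of 5 or 6 arrays, 112 sets of values were searched for a single array far from the rest of its group by Dixon's criterion, and 12 had one; chance gives about 1 in 20. WT TCDD replicate 6, the array that stood apart in RNA quality probes, accounts for 5 of them. C1qa was 7.05 there, with the nearest WT TCDD array at 8.90, Plg was 12.88 with the nearest at 13.79, and Cebpa was 11.08 with the nearest at 11.80. C4bp was 13.06 on that array with the nearest at 12.82, and Fgg 15.07 with the nearest at 14.98.

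Single values on other arrays were also far from the rest. In WT TCDD replicate 4, Masp2 was 11.18 (nearest 10.998) and F5 was 11.90 (nearest 12.08). In WT TCDD replicate 2, Fgb was 15.05 (nearest 15.16) and Hrg 13.41 (nearest 13.50). In WT TCDD replicate 3, C1ra was 12.15 (nearest 12.11) and Itih3 13.76 (nearest 13.57). In WT corn oil replicate 5, Fga was 15.11 (nearest 15.19).

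The TCDD effect differed between genotypes by a test of the difference itself in 8 genes. For Cfb the knockout minus wild-type difference was −0.36 on the log2 scale. It was −4.26 for Nqo1, −2.03 for Nr1i3, −0.75 for Cd59a, −0.44 for Hgfac and −0.27 for Hrg, all of which rose in wild type. It was 1.23 for Steap4 and 0.59 for Cp, which fell in wild type. The call was lost when any 1 of 10 arrays was left out for Hgfac, any 1 of 5 for Hrg and any 1 of 2 for Cd59a. The size for Nqo1 rests on corn oil values near the medians of the arrays and is no measured fold. In knockout livers the TCDD differences of these genes were −0.04 for Cfb, 0.08 for Nqo1, −0.23 for Nr1i3, −0.12 for Cd59a, −0.18 for Hgfac, −0.14 for Hrg, 0.13 for Steap4 and 0.18 for Cp.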

How the results depend on the processing

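All 21 calls among the 37 genes kept their sign in each alternative that gave a value, and 52 of 566 repeats of them lost the threshold. Array number limits these results: leaving out 1 array at a time called 10 to 14 genes for wild-type TCDD, 0 for knockout TCDD, 6 to 9 for genotype and 1 to 2 for the difference of effects. Their median differences ranged from −0.10 to −0.07, −0.07 to −0.01, 0.00 to 0.05 and 0.04 to 0.09. Probe sets called ranged from 1466 to 1866 (1882 with all arrays), 1 to 34 (6), 404 to 780 (654) and 333 to 552 (501).

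Array weights called 11 of the 37 genes for genotype, adding C4bp, Cfi, Proc and Serping1. The difference of effects had 2 called genes under quantile normalization, median centring, array weights and the replicate block, which each added C4bp, and 2 with scan day as a block, which added Pros1. Within scan day 1, 0 genes were called for TCDD in wild type (median −0.18) and 0 for genotype (median −0.052). Within day 2 the counts were 5, 1 and, for the difference of effects, 0. With scan day as a block the median for TCDD in knockout was −0.0085. The cause of these shifts was not tested, beyond the fewer arrays within a day. Where a day held 1 array of a group, that array was taken to vary like the other groups, so those counts are no test of the calls.

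Probe sets called for TCDD in wild type were 456 within day 1 and 564 within day 2. For TCDD in knockout they were 51 with array weights, 1 with scan day as a block, 255 within day 2, 0 with the replicate block and 2 with the filter. For genotype they were 1310 with array weights, 294 within day 1 and 347 with the replicate block. For the difference of effects they were 1071 with array weights, 239 with scan day as a block and 310 within day 2. Higher against lower calls were 323 and 349 for genotype under quantile normalization, against 393 and 261 as reported. They were 1148 and 1089 for TCDD in wild type with array weights, against 1146 and 736.

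The replicate block left 10 of the 37 genes called for TCDD in wild type, losing C8a, Serpind1, Serping1 and Klkb1 and gaining Plg, and 7 for genotype, losing F7 and gaining C4bp. F7 was also lost under median centring and with scan day as a block, and C8a with array weights. F2 was added for TCDD in wild type by quantile normalization, C4bp and Proc for genotype.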
